A study of Mus musculus with 2 samples.

Results

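The genes described here are 56 genes of fatty acid and cholesterol metabolism in mouse colon, and what was measured at them is the histone mark H3K36me2. They were chosen by name, as genes of lipid uptake, fatty acid activation, synthesis and oxidation, triglyceride synthesis and hydrolysis, lipoprotein assembly, and sterol synthesis and transport, and a peak was counted for a gene when the authors' annotation gave that gene as its nearest start site. All 56 were found among the 21900 protein-coding genes of the RefSeq gene table used for names, and 36 of them were among the 18187 genes that the peak lists name. The data comprised 1 CUT&Tag library from the colon of Nsd2 fl/fl mice (fl/fl below) and 1 from that of Nsd2 ΔIE mice (ΔIE below). Both genotypes carried floxed Nsd2 alleles on a C57BL/6J background, and in Nsd2 ΔIE mice Cre driven by the Villin promoter removes the gene in the intestinal epithelium only. The mice were male littermates, aged 7 to 8 weeks at the start, and both groups received a high-fat, high-cholesterol diet (HFCD), for 16 weeks by the deposited design text and 18 weeks by the study's methods. Whole colon tissue was used, so that cells in which Villin-Cre is not active are also in each library, and the number of mice behind a library is not given in the sources used here.

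NSD2 is a methyltransferase that places 2 methyl groups on lysine 36 of histone H3, and the mark is found over gene bodies and the intergenic DNA around them. In CUT&Tag, an antibody to the mark brings the transposase Tn5 to the chromatin, and the DNA near the mark is cut, tagged and sequenced. The colon epithelium uses fatty acids for energy, builds membrane lipids and sterols, and takes up little dietary fat compared with the small intestine. A peak tells where the mark was found and is not a measure of mRNA.

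Each peak came with its position, its width, the coverage summed over it, the gene with the nearest start site and the genomic feature it lies in. The fl/fl list held 19976 peaks and the ΔIE list 23518, and the number of reads behind either is unknown. Positions of peaks are given as the lists print them, in a build other than the GRCm38.p6 of the RefSeq table, so that the table served for names and promoter sequences and the 2 were not joined by coordinate. The tissue label was compared with marker genes first. Of 16 markers of colon epithelium, 7 had a peak in fl/fl and 9 in ΔIE, among them Vil1, Cdx1, Muc2, Cdh1 and Aqp8 in both, while Krt8, Krt18, Cdx2, Car1 and Slc26a3 had none. Vil1 is also the source of the promoter of the transgene, and its start-site peak had 64.9 units of summed signal per bp in fl/fl and 76.8 in ΔIE, where the medians over all peaks were 6.14 and 6.32, and the cause was not tested. Of 10 immune markers 3 and 5 had a peak, of 10 markers of stroma and smooth muscle 4 and 5, of 6 adipocyte markers 2 and 4, of 7 markers of small intestine epithelium 2 and 3, and of 6 hepatocyte markers 0 and 2. Over all 55 markers 18 (32.7%) and 28 (50.9%) had a peak, beside 30.9 and 32.9% of protein-coding genes. These marker peaks covered 132959 and 166389 bp, and the part of cell types in the differences below was not tested. A peak list of a histone mark does not test the deletion of Nsd2, and the gene itself had no annotated peak in fl/fl and 1 of 3766 bp in ΔIE. With 1 library per genotype, no difference between the genotypes below has a replicate check or a test, and all of them compare these 2 libraries. In bulk tissue, fewer cells of a type and less of the mark per cell cannot be told apart.

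The mark was found at lipid genes of most roles in both libraries, and at the same number of genes in each. In fl/fl, 29 of the 56 genes (51.8%) had a peak, against 30.9% of all protein-coding genes. In ΔIE the number was again 29 (51.8%), against 32.9%. With only the stronger 50% of each list by summed signal, the numbers were 17 and 25, and the share of protein-coding genes was not counted. The 2 sets shared 22 genes (39.3%, against 20.4%), while 7 had a peak in fl/fl only (12.5%, against 10.4%) and 7 in ΔIE only (12.5%, against 12.5%). The other 20 (35.7%) had none in either library, where the share over protein-coding genes was 56.6%. Promoter peaks, which the annotation places within 3 kb of a start site, were present at 15 genes in fl/fl (26.8%, against 16.8%) and at 17 in ΔIE (30.4%, against 16.3%), and 9 genes had one in both. With all peaks kept, the mark was thus listed at a larger share of lipid genes than of protein-coding genes in each library. This is a description only. In ΔIE the 55 cell type markers had a share of 50.9%, close to that of the lipid genes.

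For each gene the widths of its peaks were added up in each library. A gene was counted as having less length in ΔIE when the log2 ratio of ΔIE to fl/fl lay below -0.5 or when its peaks were in fl/fl only, and as having more by the opposite rule. Less length was found at 15 of the 36 lipid genes with a peak (41.7%), beside 43.8% of protein-coding genes with a peak, and more length at 14 (38.9%), beside 37.6%. Both shares lay near those of all genes. The median log2 ratio of the 22 genes with a peak in both libraries was -0.17, from -2.04 at Abca1 to 1.56 at Acacb, and that of protein-coding genes was -0.32. The peaks of the 56 genes covered 242685 bp in fl/fl and 230040 bp in ΔIE.

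**Figure D1:**
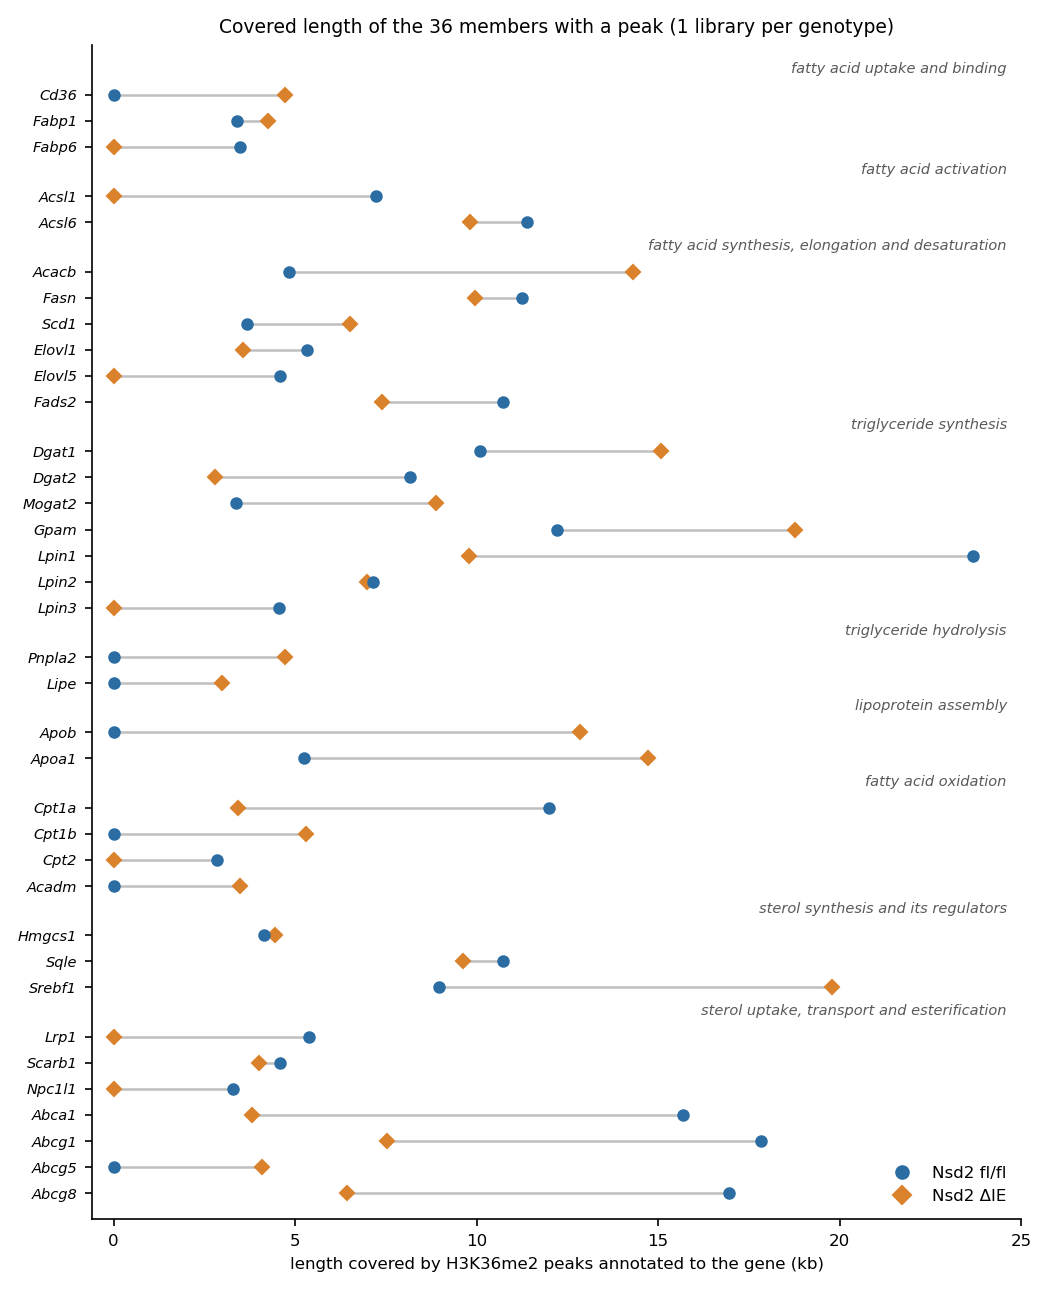
Length covered by H3K36me2 peaks (kb, x axis) at each of the 36 lipid genes with a peak, by role, in the fl/fl library (circles) and the ΔIE library (diamonds), where a symbol at 0 means no annotated peak. By annotated peaks, the longest coverage in fl/fl is at Lpin1 (23664 bp) and the longest in ΔIE is at Srebf1 (19780 bp, or 10875 bp by position).

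The roles differed in how many of their genes carried a peak, where 30.9% of protein-coding genes had one in fl/fl and 32.9% in ΔIE. All 7 genes of triglyceride synthesis had one, 7 in fl/fl (100%) and 6 in ΔIE (85.7%), and their covered length was 69199 bp and 62310 bp. Of 9 genes of fatty acid oxidation 2 and 3 had a peak (22.2 and 33.3%), with 14817 bp and 12204 bp. Sterol uptake and transport held 6 and 5 genes with a peak among 9 (66.7 and 55.6%), with 63713 bp in fl/fl and 25879 bp in ΔIE. Of its 7 genes with a peak, 5 had less length in ΔIE and 1 had more, beside 43.8 and 37.6% of protein-coding genes. By position, which here means the bases between the ends of the gene that lie under any peak, whatever its annotation, 71807 and 59754 bp of these sterol genes were covered, and 4 had less and 2 had more. The ends of a gene are listed only where it has an annotated peak. Sums by position thus leave out Npc1 and Soat2 here, and Mttp, Apoa4 and Apoe for lipoprotein assembly. By whole widths of the peaks that touch the gene, 3 had less and 2 had more. With peaks in a feature of the gene added to the annotated ones, 3 had less and 0 had more. The opposite order was seen at 5 genes of lipoprotein assembly, with 5257 bp and 27572 bp (0 and 4955 bp by position), and at 3 genes of triglyceride hydrolysis, which had 0 bp in fl/fl and 7723 bp in ΔIE. These are sums over few genes. Most of the annotated sterol transport length was at Abca1, Abcg1 and Abcg8, and all of the lipoprotein length was at Apob and Apoa1.

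Among the 5 genes of fatty acid uptake and binding, 2 had a peak in each library (40%, beside 30.9 and 32.9% of protein-coding genes). Cd36, the scavenger receptor that takes up long-chain fatty acids, had 1 peak in ΔIE, at chr5:18062529-18067259 in intron 1 of a transcript that begins upstream of the listed start site, 7739 bp from that site and at percentile 58.0 of its list by summed signal. No fl/fl peak lay within 598157 bp of the Cd36 start site. Fabp1, a cytosolic fatty acid binding protein of liver and intestine, had 1 peak in each library, of 3398 bp at its promoter in fl/fl (chr6:71179061-71182458, percentile 10.6) and of 4239 bp in ΔIE (chr6:71190538-71194776, percentile 89.0). The ΔIE peak lay past the end of Fabp1, 13675 bp from its start site, so that by position the mark covered 2958 bp of the gene in fl/fl and 0 bp in ΔIE. The log2 ratio of annotated length was 0.32, and the peaks were 8080 bp apart. Fabp6, the ileal bile acid binding protein, had 1 fl/fl peak of 3474 bp, which lies in exon 4 of its neighbour Ccnjl, 20275 bp from the Fabp6 start site. Fabp2, the intestinal fatty acid binding protein, and Fabp4, that of fat cells and macrophages, had none.

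Acyl-CoA synthetases activate fatty acids by joining them to coenzyme A, and Acsl6 and Acsl1 of this family carried the mark at their promoters. At Acsl6, 1 fl/fl domain of 11376 bp (chr11:54205625-54217000) ran over both start sites that the lists give, with a summed signal of 71734, percentile 97.5 of the list. In ΔIE, 2 peaks of 3405 and 3634 bp overlapped that domain and another of 2776 bp lay 827 bp beyond its end (chr11:54204612-54220602), at percentiles 34.2, 64.4 and 68.5. The covered length was 11376 and 9815 bp, a log2 ratio of -0.21, and 6026 bp were covered in both. A fl/fl peak of 3288 bp at exon 21 is annotated to Gm12224, and with it the log2 ratio was -0.58. Both start sites were under a peak in ΔIE too. Acsl1 had 2 promoter peaks in fl/fl, of 2793 and 4431 bp (chr8:46935981-46946303), at percentiles 13.6 and 0.498, and none in ΔIE. Both were among the weaker peaks of the list. Acsl3 and Acsl5 had no annotated peak, although a fl/fl peak of 5657 bp in exon 7 of Acsl3 is annotated to Gm38631.

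Fatty acid synthesis, elongation and desaturation held several domains that were found in both libraries. At Fasn, which encodes fatty acid synthase, the fl/fl list gave 2 peaks, of 6905 bp beginning 1494 bp inside the gene (chr11:120706975-120713879, signal 58542, percentile 95.1) and of 4346 bp around exon 24 (chr11:120700099-120704444, percentile 79.2). ΔIE had 1 peak of 9966 bp over most of the same stretch (chr11:120703536-120713501, signal 73058, percentile 99.4). The covered length was 11251 and 9966 bp (log2 ratio -0.17), 7436 bp of it in both. A further ΔIE peak of 4920 bp in the 3' part of Fasn is annotated to its neighbour Dus1l, and with it peaks lay over 80.1% of the gene in ΔIE and the log2 ratio turned to 0.40. The Fasn start site itself was under no peak in either library.

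Elovl1, which elongates saturated and monounsaturated fatty acids to very long chains, had 1 promoter peak in each library. In fl/fl it was 5320 bp wide (chr4:118284505-118289824, percentile 83.1) and in ΔIE 3572 bp (chr4:118285475-118289046, percentile 56.6), and the whole of the narrower peak lay inside the wider one. The log2 ratio was -0.57, and -0.34 by position. The lists give 2 start sites for Elovl1, 1608 bp apart. The upstream site was under the fl/fl peak and 185 bp outside the ΔIE peak, while the downstream site was under a peak in both. RefSeq windows of 300 bases around start sites with the same spacing in GRCm38.p6, from 250 bases before each to 50 after, are printed here because the edge of the mark differed between them, at chr4:118427843-118428142 and chr4:118429451-118429750 on the plus strand. Capitals mark 2 promoter elements on either strand, the CCAAT box and the GC box with the letters GGGCGG, and a GC box and the CCAAT box overlap in the first.
Elovl1 upstream site: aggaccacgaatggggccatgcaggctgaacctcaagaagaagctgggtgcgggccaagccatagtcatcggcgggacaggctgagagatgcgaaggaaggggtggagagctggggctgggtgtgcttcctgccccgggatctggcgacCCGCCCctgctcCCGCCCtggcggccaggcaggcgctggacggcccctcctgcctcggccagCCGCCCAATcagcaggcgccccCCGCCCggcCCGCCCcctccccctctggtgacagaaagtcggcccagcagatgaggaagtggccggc
Elovl1 downstream site: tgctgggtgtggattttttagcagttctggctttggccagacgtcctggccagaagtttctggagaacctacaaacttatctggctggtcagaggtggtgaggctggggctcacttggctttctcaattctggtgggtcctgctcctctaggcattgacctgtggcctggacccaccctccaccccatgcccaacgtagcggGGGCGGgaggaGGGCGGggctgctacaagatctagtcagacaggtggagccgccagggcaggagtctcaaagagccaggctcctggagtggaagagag
The upstream window held 20 CpG and 6 matches and the downstream window 6 CpG and 2 matches. Over all 32851 windows of the table, 37.4% held a CCAAT box and 35.7% a GC box, and the 56 windows of 42 lipid genes held them at 39.3% and 50%, beside 46.2% for the GC box over windows of protein-coding genes. The median CpG count was 14 in windows of lipid genes and 13 in those of protein-coding genes.

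Fads2, the delta-6 desaturase of polyunsaturated fatty acid synthesis, had 10712 bp in fl/fl and 7393 bp in ΔIE (log2 ratio -0.53). Its promoter peak was 5686 bp wide in fl/fl (chr19:10076377-10082062, percentile 69.3) and 3605 bp in ΔIE (chr19:10079224-10082828, percentile 46.0), with 2839 bp shared. The single start site was under the former and 357 bp outside the latter, which lay upstream of it. Inside the gene, the fl/fl list had a peak of 5026 bp at exon 3 (chr19:10063039-10068064, percentile 80.3) and the ΔIE list one of 3788 bp in intron 5 (chr19:10050189-10053976, percentile 57.5), and these did not overlap. A ΔIE peak of 2589 bp at exon 6 is annotated to Gm29917, and with it the log2 ratio was -0.10, and -0.24 by position. The RefSeq window of the Fads2 start site, at chr19:10101454-10101753 on the minus strand of GRCm38.p6, is shown because that base separates the libraries, and its 1 GC box is in capitals.
Fads2: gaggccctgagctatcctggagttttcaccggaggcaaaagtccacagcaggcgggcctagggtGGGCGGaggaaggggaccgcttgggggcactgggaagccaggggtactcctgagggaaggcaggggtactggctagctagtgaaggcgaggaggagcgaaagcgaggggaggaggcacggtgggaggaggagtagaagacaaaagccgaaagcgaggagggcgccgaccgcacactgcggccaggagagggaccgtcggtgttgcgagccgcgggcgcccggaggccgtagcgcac
Its neighbour Fads1 had no peak.

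The other genes of this role had peaks of lower summed signal or shifted position. Scd1, the stearoyl-CoA desaturase that makes oleate, had 1 intergenic fl/fl peak of 3672 bp, 5864 bp upstream of its start site (chr19:44402012-44405683, percentile 4.93). In ΔIE it had a promoter peak of 3165 bp (chr19:44392535-44395699, percentile 17.5) and an intergenic one of 3335 bp (chr19:44409032-44412366, percentile 14.7). None of these overlapped, and all of them were low in their lists by summed signal. The log2 ratio of length was 0.82, and -0.21 when both lists were held to the same number of peaks. Acacb, the acetyl-CoA carboxylase of mitochondria, had 1 peak of 4844 bp in fl/fl (chr5:114275068-114279911, percentile 38.4) and 5 of 1605 to 3884 bp in ΔIE (chr5:114279388-114358057, percentiles 21.9 to 54.3), 4844 and 14293 bp in all (log2 ratio 1.56). However, 2 fl/fl peaks of 4841 and 6662 bp at exons 36 and 44 of Acacb and 1 ΔIE peak of 2264 bp at exon 48 are annotated to Foxn4, and counted by position the mark covered 11503 bp of the gene in fl/fl and 14952 bp in ΔIE. Elovl5 had an annotated peak in fl/fl only, of 4587 bp in an intron, but that peak lay outside the gene span in the lists, and a ΔIE peak of 2521 bp inside the span is annotated to Gm34829. Acaca, Scd2, Elovl6 and Fads1 had no annotated peak. Peaks in introns of Acaca (1 in each library) and in intron 2 of Elovl6 (3 in ΔIE, of 3762 to 6199 bp) are annotated to other genes.

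**Figure D2:**
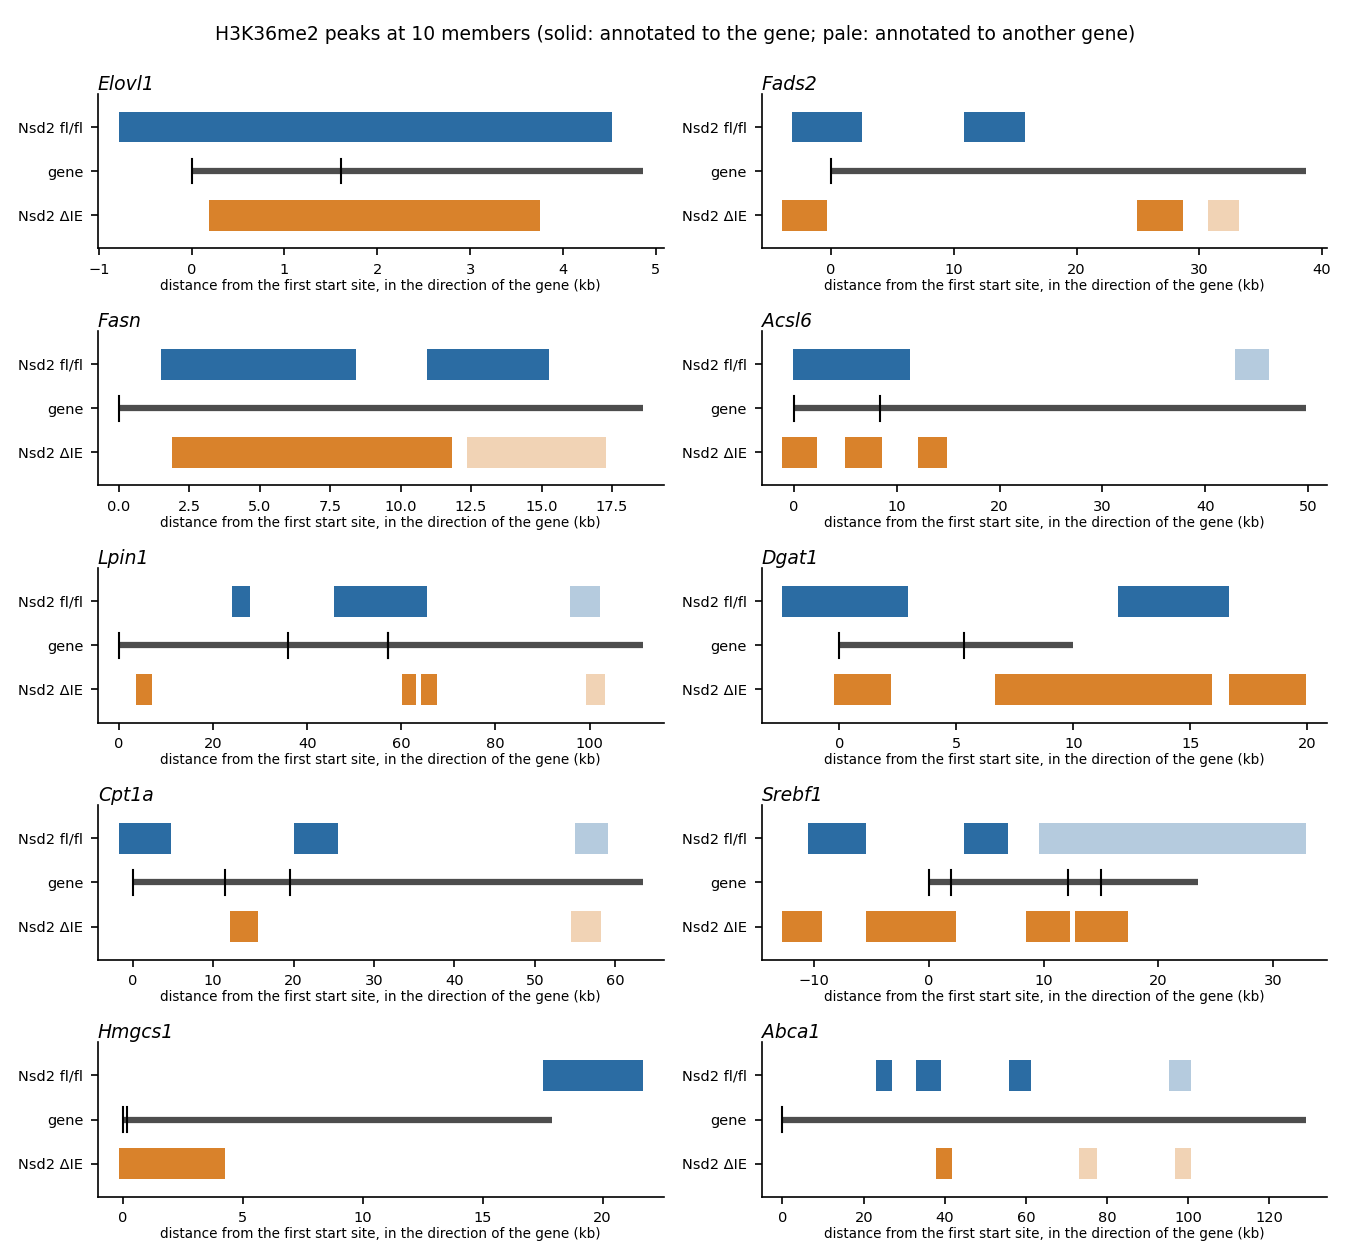
Peaks at 10 lipid genes along the distance from the first start site in the lists (kb, x axis, in the direction of the gene), with the fl/fl library above and the ΔIE library below the gene (grey bar, start sites as ticks). Solid boxes are peaks annotated to the gene and pale boxes peaks over it that are annotated to another gene, and the map shows 1 Acsl6 domain of 11376 bp in fl/fl where ΔIE has 2 peaks over the domain and 1 beyond its end.

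All 7 genes of triglyceride synthesis had a peak in fl/fl and 6 had one in ΔIE, beside 30.9 and 32.9% of protein-coding genes. Lpin1, a phosphatidate phosphatase that makes diacylglycerol, held the widest peak annotated to a lipid gene, a fl/fl domain of 19685 bp around its downstream start sites (chr12:16631543-16651227) with a summed signal of 137525, percentile 99.8. In ΔIE that stretch held peaks of 3267 and 3008 bp (chr12:16629407-16632673 and chr12:16633749-16636756, percentiles 57.7 and 31.6), which shared 4139 bp with the domain, and the 2 downstream start sites lay 2965 and 3015 bp outside them. With an intron peak of 3979 bp in fl/fl (chr12:16669029-16673007, percentile 5.37) and one of 3521 bp in ΔIE (chr12:16689845-16693365, percentile 39.7), the lengths were 23664 and 9796 bp, a log2 ratio of -1.27. A peak at exon 15 in fl/fl (6495 bp) and one at exon 16 in ΔIE (3943 bp) are annotated to LOC118567986. Lpin2 had 7143 and 6983 bp (log2 ratio -0.03), with a promoter peak in each library, of 3406 bp (chr17:71490912-71494317, percentile 42.2) and 3439 bp (chr17:71493687-71497125, percentile 66.7), that shared only 631 bp. Its second fl/fl peak (chr17:71558538-71562274, percentile 8.22) lay past the end of the gene and its second ΔIE peak (chr17:71550788-71554331, percentile 65.3) in it, so that by position 3345 and 6983 bp were covered (log2 ratio 1.06). Lpin3 had a promoter peak of 4547 bp in fl/fl alone (chr2:160731893-160736439, percentile 23.0).

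Dgat1 and Dgat2 catalyse the last step of triglyceride synthesis, with more length in ΔIE at the former and less at the latter. Dgat1 had 10099 bp in fl/fl and 15073 bp in ΔIE (log2 ratio 0.58), but with equal numbers of peaks the log2 ratio was 0.22, under the limit. The peak over its first start site was 5352 bp wide in fl/fl (chr15:76393278-76398629, percentile 46.6) and 2447 bp in ΔIE (chr15:76393997-76396443, percentile 35.5), the latter entirely inside the former. The longer coverage came with a ΔIE peak of 9304 bp over the gene and beyond its end (chr15:76380244-76389547, signal 61832, percentile 98.9), which overlapped a fl/fl peak of 4747 bp (chr15:76379543-76384289, percentile 59.5) by 4046 bp, and with another of 3322 bp (chr15:76376222-76379543, percentile 1.02). Dgat2 had 8169 bp around exon 2 in fl/fl (chr7:98810743-98818911, percentile 93.8) and 2805 bp in intron 1 in ΔIE (chr7:98821705-98824509, percentile 57.9), a log2 ratio of -1.54 with no overlap. A peak at exon 6 of Dgat2 was present in both libraries, of 2885 and 2785 bp at nearly the same position, and is annotated to Uvrag. With it the log2 ratio was -0.98. Mogat2, the monoacylglycerol acyltransferase of the gut, had a promoter peak of 3368 bp in fl/fl (chr7:98885660-98889027, percentile 63.7) and a peak of 8873 bp around exon 3 in ΔIE (chr7:98871172-98880044, percentile 98.0), a log2 ratio of 1.40 and of 2.43 by position. Gpam, which starts glycerolipid synthesis at the mitochondrial membrane, had 3 peaks of 12209 bp in fl/fl (chr19:55054057-55076432) and 5 of 18780 bp in ΔIE (chr19:54951786-55130016, log2 ratio 0.62), at percentiles 7.78 to 48.5 and 4.79 to 78.2. Of these, 2637 bp around exons 5 to 7 were shared, and 3 of the ΔIE peaks lay outside the gene, up to 130853 bp from a start site. By position, 10199 bp of Gpam were covered in fl/fl and 8330 bp in ΔIE, a log2 ratio of -0.29, within the limit of 0.5.

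For triglyceride hydrolysis and lipoprotein assembly, peaks were mostly in ΔIE. Pnpla2, the adipose triglyceride lipase, had a peak of 4729 bp that ends 155 bp before its start site (chr7:141030218-141034946, percentile 77.6), and Lipe, hormone-sensitive lipase, had one of 2994 bp over its start site (chr7:25085761-25088754, percentile 66.4). Neither had an annotated peak in fl/fl, but a fl/fl peak annotated to another gene lay 1117 bp from the Lipe start site, 621 bp from the ΔIE peak. No peak was found for Lpl, which acts on circulating lipoproteins, in either library. Apob, the scaffold protein of chylomicrons, had 3 ΔIE peaks of 12849 bp in all. Of these, 4955 bp lay around exon 6 (chr12:8033234-8038188, percentile 82.9), and the others (chr12:8097881-8101789 and chr12:8127225-8131209, percentiles 80.2 and 85.2) lay inside the noncoding gene Gm33037, 70204 and 99548 bp from the Apob start site. Apoa1, the main protein of high-density lipoprotein, had 5257 bp in fl/fl and 14723 bp in ΔIE (log2 ratio 1.49), but no peak touched the gene. Its peaks lay upstream, most of them in Sik3, and the one at exon 15 of Sik3 (chr9:46115228-46120484 and chr9:46115131-46120393, percentiles 51.3 and 88.7) was almost the same in both, with 98.3% of the fl/fl peak and 98.2% of the ΔIE peak shared. The other 3 ΔIE peaks lay between chr9:46088144 and chr9:46134743, at percentiles 23.7 to 78.3. Mttp, Apoa4 and Apoe had no peak.

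Of the 9 genes of fatty acid oxidation, 22.2% had a peak in fl/fl and 33.3% in ΔIE, beside 30.9 and 32.9% of protein-coding genes. Cpt1a, the carnitine palmitoyltransferase that admits fatty acids to mitochondria, had 2 promoter peaks in fl/fl, of 6491 and 5491 bp (chr19:3370606-3377096 and chr19:3392359-3397849, percentiles 65.6 and 61.9). The 1 promoter peak in ΔIE, of 3439 bp (chr19:3384439-3387877, percentile 62.4), lay between them and beside another of its 3 listed start sites. The log2 ratio was -1.80 and no base was shared, although a peak at the 3' end of the gene, annotated to Tesmin, was present in both and with it the log2 ratio was -1.15. Cpt1b, the isoform of muscle, had a peak of 5288 bp over its start site in ΔIE only (chr15:89305960-89311247, percentile 84.8), and Acadm one of 3477 bp at exon 7. Cpt2, of the inner mitochondrial membrane, had an exon peak of 2835 bp in fl/fl only. Acadl, Acadvl, Ehhadh and the neighbours Hadha and Hadhb, other genes of beta-oxidation, had no peak in either library.

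The sterol synthesis genes Hmgcs1 and Sqle had similar annotated lengths in both libraries, with the mark at other places. Hmgcs1, the cytosolic HMG-CoA synthase, had a peak of 4151 bp at its 3' UTR in fl/fl (chr13:120169413-120173563, percentile 72.3) and one of 4436 bp at its promoter in ΔIE (chr13:120151723-120156158, percentile 86.5), with a log2 ratio of 0.10 and no overlap. By position, 384 bp of Hmgcs1 were covered in fl/fl and 4272 bp in ΔIE. Both start sites that the lists give lay under the ΔIE peak. Sqle, squalene epoxidase, had 10737 and 9627 bp (log2 ratio -0.16). Its fl/fl peaks were at exon 4 (6372 bp, chr15:59194474-59200845, percentile 19.6) and in the neighbour Washc5 (4365 bp, chr15:59206047-59210411, percentile 0.511). Of its 3 ΔIE peaks one of 3704 bp lay over the start site (chr15:59185638-59189341, percentile 63.6), and the others were chr15:59202698-59205859 (percentile 25.5) and chr15:59212758-59215518 (percentile 28.1). None of the Sqle peaks overlapped, and by position 6372 bp of the gene were covered in fl/fl and 2746 bp in ΔIE. Sterol regulatory elements bind the SREBP factors that switch on these genes. The letters TCACNCCAC, like the element of sterol genes, were found in 1.24% of all windows on either strand and in those of Hmgcs1, Acsl1, Fabp6 and Ehhadh among the lipid genes. The Hmgcs1 window, at chr13:119690101-119690400 on the plus strand of GRCm38.p6, is shown for that match, with the sterol element, 4 CCAAT boxes and 3 GC boxes in capitals.
Hmgcs1: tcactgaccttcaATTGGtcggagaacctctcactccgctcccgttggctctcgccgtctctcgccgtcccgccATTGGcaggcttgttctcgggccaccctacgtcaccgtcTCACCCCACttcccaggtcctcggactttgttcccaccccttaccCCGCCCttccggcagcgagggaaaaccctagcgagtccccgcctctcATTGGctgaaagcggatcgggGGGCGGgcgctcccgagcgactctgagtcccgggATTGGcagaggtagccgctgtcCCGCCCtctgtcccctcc
Other letters searched were CACGTG (E-box), in 7.15% of all windows and 5 of those of lipid genes (Abca1, Elovl5, Lipe, Lpin2 and Lpin3), and AGGTCA repeated with 1 base between (DR1), in 0.0396% of all windows and none of those of lipid genes.

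Srebf1 encodes SREBP1, the main activator of fatty acid synthesis genes, and its count depended on the annotation. Peaks annotated to it covered 8953 bp in fl/fl (chr11:60106489-60110352 and chr11:60118839-60123927, percentiles 47.1 and 70.6) and 19780 bp in ΔIE, a log2 ratio of 1.14. However, a fl/fl domain of 23347 bp with a summed signal of 156155 (chr11:60080500-60103846) that runs over the 3' part of Srebf1 is annotated to Mir6921. By position, the mark covered 17801 bp of Srebf1 in fl/fl and 10875 bp in ΔIE. The 4 start sites in the lists differed as well. The 2 downstream sites were under a peak in both libraries, under the domain in fl/fl and under peaks of 3873 and 4595 bp in ΔIE (chr11:60101064-60104936 and chr11:60096066-60100660, percentiles 74.9 and 93.1). The 2 upstream sites were under a ΔIE peak of 7834 bp (chr11:60111001-60118834, signal 57102, percentile 98.5) and under none in fl/fl. The remaining ΔIE peak of Srebf1 was chr11:60122676-60126153, at percentile 40.8. Of these 4 sites, 3 have RefSeq windows with the same spacing in GRCm38.p6, on the minus strand at chr11:60222532-60222831, chr11:60220578-60220877 and chr11:60210422-60210721. They are printed because the first and second lay under a peak in ΔIE only and the other in both, with CCAAT and GC boxes in capitals.
Srebf1 first site: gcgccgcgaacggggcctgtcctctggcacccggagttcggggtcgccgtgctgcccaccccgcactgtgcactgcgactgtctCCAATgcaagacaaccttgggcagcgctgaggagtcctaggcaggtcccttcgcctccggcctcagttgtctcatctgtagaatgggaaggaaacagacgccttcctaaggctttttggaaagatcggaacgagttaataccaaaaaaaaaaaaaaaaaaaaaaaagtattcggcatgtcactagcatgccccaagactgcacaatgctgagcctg
Srebf1 second site: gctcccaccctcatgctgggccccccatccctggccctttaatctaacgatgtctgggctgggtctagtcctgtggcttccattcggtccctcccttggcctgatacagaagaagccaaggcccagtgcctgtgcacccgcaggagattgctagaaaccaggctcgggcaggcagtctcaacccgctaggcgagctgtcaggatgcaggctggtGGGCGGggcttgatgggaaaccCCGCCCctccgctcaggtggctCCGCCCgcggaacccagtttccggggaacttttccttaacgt
Srebf1 downstream site: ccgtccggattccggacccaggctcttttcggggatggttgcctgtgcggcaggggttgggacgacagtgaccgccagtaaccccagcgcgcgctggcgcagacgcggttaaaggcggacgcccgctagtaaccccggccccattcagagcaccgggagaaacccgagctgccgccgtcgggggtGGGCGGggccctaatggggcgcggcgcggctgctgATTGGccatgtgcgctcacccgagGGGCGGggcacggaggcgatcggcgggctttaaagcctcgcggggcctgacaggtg
The windows held 17, 14 and 36 CpG and 1, 3 and 3 matches. Srebf2, whose product SREBP2 acts on sterol genes, had no annotated peak, while 1 peak in each library, of 4672 bp at exon 6 in fl/fl and 2173 bp at exon 12 in ΔIE, lies in the gene and is annotated to Mir33, a microRNA of its introns.

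Among the genes of sterol uptake and transport, the cholesterol exporters carried most of the annotated length. Abca1, which loads cholesterol onto apolipoprotein A-I, had 3 peaks in fl/fl, of 5505, 6160 and 4013 bp at exon 3 to intron 7 (chr4:53098695-53136935, percentiles 32.8 to 74.5), and 1 of 3818 bp in intron 5 in ΔIE (chr4:53118221-53122038, percentile 61.3). The lengths were 15678 and 3818 bp, a log2 ratio of -2.04, with 1115 bp shared. A peak at exon 31 was present in both, of 5527 and 4006 bp, together with one of 4502 bp at exon 12 in ΔIE, all annotated to Nipsnap3b, so that by position 21205 and 12326 bp of Abca1 were covered. Abcg1, its partner in efflux to high-density lipoprotein, had 17829 bp in 4 fl/fl peaks (chr17:31238212-31311924, percentiles 13.1 to 89.2) and 7531 bp in 2 ΔIE peaks (chr17:31233895-31243469, percentiles 79.1 and 58.9), a log2 ratio of -1.24. Both ΔIE peaks lay upstream of the gene, while the fl/fl list had peaks of 5819 bp at exon 2 (percentile 89.2) and 4673 bp at exon 3. A peak at exon 6 of Abcg1 was in both lists and is annotated to Tff3, as is one of 3056 bp at exon 11 in ΔIE, and with these the log2 ratio was -0.48.

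Abcg5 and Abcg8, the half-transporters that return plant sterols and cholesterol to the gut lumen, share a promoter. A ΔIE peak of 4085 bp (chr17:84987752-84991836, percentile 37.8) lay over that promoter and is annotated to Abcg5, which had no annotated peak in fl/fl. By position, 4096 bp of Abcg5 were covered in fl/fl, by a peak annotated to Abcg8, and 2688 bp in ΔIE. Abcg8 had 16949 bp in 4 fl/fl peaks (chr17:84959668-85025458, percentiles 9.56 to 40.04) and 6437 bp in 2 ΔIE peaks (chr17:84998734-85035724, percentiles 39.7 and 65.9), a log2 ratio of -1.40 with no overlap. However, only 1 of the fl/fl peaks touched Abcg8 itself, 1 lay in exon 7 of Abcg5 and 1 in Lrpprc, and by position the covered length of Abcg8 was 3997 bp in fl/fl and 7413 bp in ΔIE.

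The uptake receptors of this group are Scarb1, Npc1l1 and Lrp1. Scarb1, the receptor for high-density lipoprotein, had 4586 bp in fl/fl (chr5:125406003-125410588, percentile 71.3) and 4008 bp in ΔIE (chr5:125408314-125412321, percentile 39.3), both upstream of its listed start site, with 2275 bp shared and a log2 ratio of -0.19. Over the gene itself lay 2 ΔIE peaks of 2483 and 3280 bp that are annotated to Gm32701, so that by position 0 bp were covered in fl/fl and 5763 bp in ΔIE. Npc1l1, which takes up dietary cholesterol in the small intestine, had a promoter peak of 3288 bp in fl/fl only (chr11:6178720-6182007, percentile 5.27). Another fl/fl peak, of 3305 bp at exon 15, is annotated to Nudcd3, and by position 4831 bp of Npc1l1 were covered in fl/fl and 0 bp in ΔIE. Lrp1, a large endocytic receptor, had 1 annotated peak of 5383 bp at exon 2, in fl/fl only. Yet 4 more fl/fl peaks and 5 ΔIE peaks, one of them 10791 bp wide, lie in other exons of Lrp1 and are annotated to its neighbours, and by position the mark covered 19199 and 23631 bp of the gene. Npc1 and Soat2 had no peak.

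The positions of the mark at lipid genes were shared between the libraries about as often as those of all peaks. Of the 48 fl/fl peaks, 16 (33.3%, Wilson 95% interval 21.7 to 47.5%) overlapped a ΔIE peak by at least 1 bp, beside 34.1% of all peaks of that list. Of the 58 ΔIE peaks, 21 (36.2%, 25.1 to 49.1%) overlapped a fl/fl peak, beside 30.7%. Intervals cover counting error only. Of the 22 genes with a peak in both libraries, 14 had peaks that overlapped and 8 did not, namely Fabp1, Scd1, Dgat2, Mogat2, Cpt1a, Hmgcs1, Sqle and Abcg8. The share with overlap was 63.6%, beside 64.5% of the 4478 protein-coding genes with a peak in both. The peaks without overlap were at the median 9974 bp from the nearest peak of the other list in fl/fl and 8537 bp in ΔIE, beside 15912 and 18073 bp over all peaks. Counted by start sites, 11 of the 36 lipid genes with a peak had a site under one in fl/fl (30.6%, beside 24.4% of protein-coding genes with a peak) and 10 in ΔIE (27.8%, beside 18.5%). Acsl6, Dgat1, Elovl1 and Srebf1 had the same site under a peak in both, 4 of the 36 (11.1%, beside 5.41%).

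By summed signal, the fl/fl peaks with an overlap ranked higher than those without. Ranked by summed signal within the list, the 16 that overlapped had a median percentile of 70.0 and the 32 that did not 26.5, beside 66.7 and 42.8 over all peaks. In ΔIE the medians were 58.9 and 58.0 at the lipid genes, beside 65.6 and 44.1. Summed signal adds up over the width of a peak. Median widths with and without overlap were 5173 and 4177 bp in fl/fl, beside 5014.5 and 4531 bp over all peaks. In ΔIE they were 3605 and 3544 bp, beside 3634 and 3351 bp. Of the 48 fl/fl peaks, 16 (33.3%) lay within 10% of the lowest signal in the list, beside 25.4% of all, and of the 58 ΔIE peaks 11 (19.0%), beside 26.0%. Peaks in the top 10% by signal numbered 4 in fl/fl (Acsl6, Fasn, Dgat2 and Lpin1) and 5 in ΔIE (Fasn, Dgat1, Mogat2 and 2 of Srebf1).

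**Figure D3:**
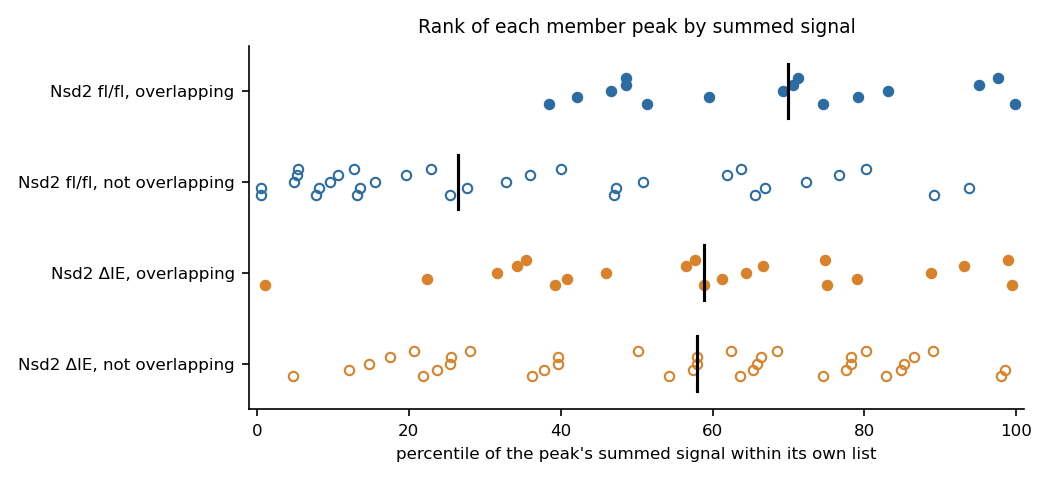
Percentile of each lipid gene peak by summed signal within its own list (x axis), for 48 fl/fl peaks and 58 ΔIE peaks, split by whether the peak overlaps one of the other list, with the median as a black line. The fl/fl peaks that overlap lie higher (median 70.0) than those that do not (26.5), and the medians in ΔIE are 58.9 and 58.0.

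The peaks at lipid genes were compared with all peaks of their lists in width and feature. The median width was 4566.5 bp in fl/fl and 3588.5 bp in ΔIE, beside 4643 and 3426 bp over all peaks. Exons held 16 of the 48 fl/fl peaks (33.3%, 21.7 to 47.5%), beside 16.5% of all, and 14 of the 58 ΔIE peaks (24.1%, 15.0 to 36.5%), beside 17.4%, a share within the interval. Distal intergenic peaks were 2 of 48 (4.17%) and 6 of 58 (10.3%), beside 18.01 and 20.1%. Promoter peaks were 35.4 and 36.2%, beside 32.1 and 27.9%. The members were chosen by name and peaks of 1 gene share their locus, so that these shares are descriptions. All peaks of a list also include those annotated to noncoding genes, while the members are all protein-coding, and the part of this in the shares was not tested. In addition, 5 of the 48 fl/fl and 11 of the 58 ΔIE peaks counted for a lipid gene lie inside another gene. Over all peaks the numbers were 3571 of 19976 and 4581 of 23518.

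**Figure D4:**
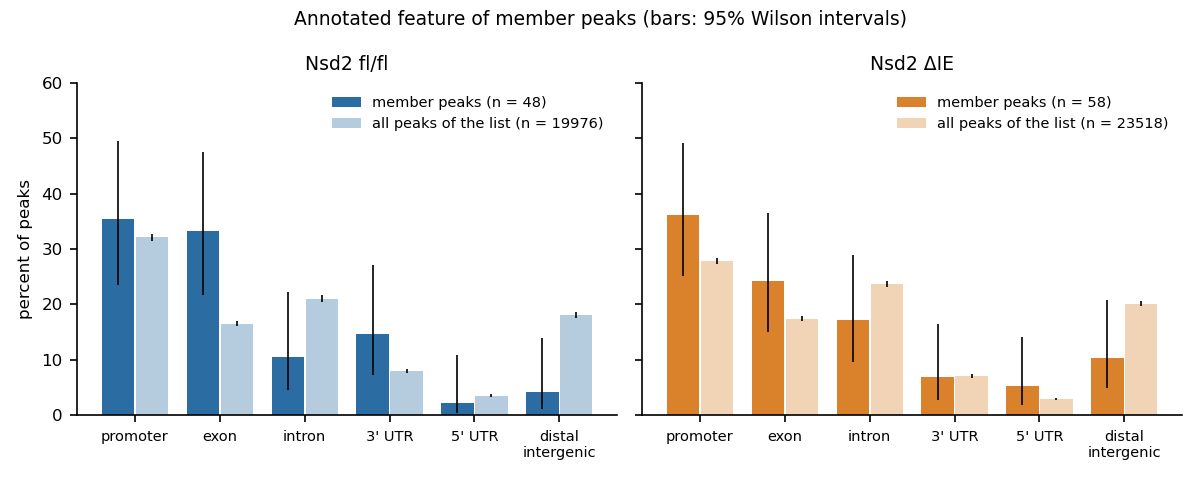
Percent of peaks (y axis) in each annotated feature for the peaks at lipid genes (dark bars, n = 48 and 58) and for all peaks of the list (pale bars), with Wilson 95% intervals as black lines. Exons hold 33.3% of the fl/fl peaks at lipid genes and 16.5% of all peaks of that list.

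Of 136 further genes of the same pathways, 49 had a peak in fl/fl (36.03%, beside 30.9% of protein-coding genes) and 62 in ΔIE (45.6%, beside 32.9%). No peak was listed for 57 (41.9%, beside 56.6%). Of the 79 with a peak, less length was found at 30 (37.97%) and more at 39 (49.4%), beside 43.8 and 37.6% of protein-coding genes. Sterol genes beyond the 56 held 20 with a peak, 10 with less length (50%) and 8 with more (40%), and the 13 lipid-sensing transcription regulators held 11, 5 with less (45.5%) and 3 with more (27.3%). In the other lists the counts with less and more length were 2 and 4 of 7 for uptake and activation, 2 and 5 of 7 for synthesis, 3 and 7 of 12 for triglyceride synthesis and lipid droplets, 4 and 8 of 13 for oxidation and 4 and 4 of 9 for lipoproteins. The median log2 ratio of the 32 genes with a peak in both libraries was -0.26, between that of the 56 lipid genes and that of protein-coding genes.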

How the data were processed

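H3K36me2 was profiled by CUT&Tag in colon tissue of HFCD-fed mice, in 1 library for each genotype, Nsd2 fl/fl (fl/fl) and Nsd2 ΔIE (ΔIE), and groups were taken from the sample labels. The authors deposited for each library, without pooling, a list of called peaks with the position, the width, a summed signal and an annotation to the nearest transcription start site. The deposited signal of a peak is a whole number that reads as coverage summed over the peak, with no stated correction for depth, so that signal was only ranked within a list. The submitters' processing notes name Bowtie2, deepTools, SEACR and ChIPseeker without versions, and the build hg38, although the lists hold mouse genes. The role of each tool is not given in the sources used here. The start sites of the lists differ from those of GRCm38.p6, whose RefSeq table was used for gene names, biotypes and promoter windows only. Of 18187 gene names in the lists, 17574 matched that table and 613 did not.

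Peaks were assigned to genes by the deposited annotation. Their widths were summed per gene, overlaps needed 1 bp, and Wilson 95% intervals cover counting error only. Protein-coding genes of the table were the background. Depth is unknown, so no single peak has a stated precision. The work used Python 3.11.15, pandas 2.3.3, numpy 2.4.6, scipy 1.17.1 and matplotlib 3.10.9. The functions for classes, overlaps and gaps were tested on simulated lists with known answers.

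Every gene of the list was accounted for. Positions and signal percentiles, for genes with several peaks in part as the stretch and range that hold them, are given for genes with a peak in both libraries, a promoter peak in either or 10 kb or more covered, and for Cd36 and Fabp2, which the study measured as mRNA in colon, and Fasn and Scd1, for mRNAs it measured in liver (named Fas and Scd-1). Promoter windows were taken from up to 6 genes with a peak within 1 kb of a start site, of which those printed were Elovl1 and Srebf1, where the windows (2 of 2 and 3 of 4 listed start sites) have the spacing of the listed sites, and Fads2, with a single site and window, and Hmgcs1 was added after its match was seen. The members and lists were chosen with earlier results of these data known. Alternatives were the strongest 50% of each list, equal numbers of peaks, promoter peaks, peaks within 25 kb of a start site, whole peaks that touch the gene body, bases of the gene body under a peak, a log2 limit of 1, centred log2 ratios, numbers of peaks and a reciprocal overlap of 50%.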

Additional observations from a re-analysis of the deposited data

How the results depend on the processing

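No paired analysis was possible because there is a single library of fl/fl and one of ΔIE. Of 44 summary values under alternatives, 38 stayed within 1.5 times the count, or within the interval of the share, and 6 did not. With the strongest 50% of each list, 17 lipid genes had a peak in fl/fl and 25 in ΔIE, and 25% of the ΔIE peaks overlapped a fl/fl peak. With promoter peaks only, 15 genes had a peak in fl/fl and 17 in ΔIE. With a reciprocal overlap of 50%, the shares of overlapping peaks were 10.4% in fl/fl and 6.90% in ΔIE. These alternatives use fewer peaks or a stricter overlap by construction. No share over protein-coding genes or over all peaks is given for the 50% cut, for the reciprocal overlap or for the counts by position or feature below. Of 145 log2 ratios of single genes under alternatives, 114 stayed in their class, 24 changed class and 7, at genes counted as having less or more length, changed sign (a further 13 changed sign among the 114 and 24). With equal numbers of peaks Scd1 went to -0.21, and by whole widths of all peaks that touch the gene Gpam went to -0.55, Srebf1 to -0.74 and Abcg8 to 0.89. By the bases of the gene under a peak, another alternative chosen after seeing the data, they went to -0.29, -0.71 and 0.89, and 25 genes had a peak in fl/fl and 28 in ΔIE. Only the 36 lipid genes with a listed span could be counted by position. Over the 11 settings, 1 of them by number of peaks, Cpt1a was the 1 gene counted as less in ΔIE in each, and Pnpla2, Lipe and Cpt1b were those counted as more. Pnpla2, Lipe and Cpt1b had annotated peaks in ΔIE only, so that the limit, the centring and the number of peaks could not change their class. The share of protein-coding genes that kept their class in every setting was not counted. Peaks in a feature of a gene but annotated to another gene, an alternative chosen after seeing the data, raised the genes with a peak to 33 in each library.

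The lists give gene spans only for genes with a peak, so the length of genes with and without a peak was not compared. The median listed span was 26541.5 bp for the 22 lipid genes with a peak in both libraries and 20949.5 bp for those with a peak in 1. The lists hold peaks above a lowest signal of 21783 and 16571 only, so that the mark below that signal was not measured.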

Other observations

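Among the 136 further genes of the same pathways, 32 had a peak in both libraries. Of these, 23 had peaks that overlapped, beside 64.5% of protein-coding genes with a peak in both. Those of the 23 with the longest coverage are described here. Rxra, the partner of the nuclear receptors that sense fatty acids, bile acids and oxysterols, had 10 peaks of 84380 bp in fl/fl and 11 of 64584 bp in ΔIE, with 42217 bp covered in both, a log2 ratio of -0.39. Ppard, a nuclear receptor for fatty acids, had 1 promoter domain of 19406 bp in fl/fl and 4 peaks of 14096 bp in ΔIE, with 3813 bp in both. Agpat3, which makes phosphatidic acid, had 10958 and 23765 bp (log2 ratio 1.12), and Mlxipl, the carbohydrate-responsive activator of lipogenesis, had 5725 and 11936 bp (1.06). Fabp3, a fatty acid binding protein of muscle, had 4700 and 13054 bp (1.47).

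The other 5 of these genes had log2 ratios below -0.5. Pmvk, a kinase of the mevalonate pathway, had 19113 bp in fl/fl and 2881 bp in ΔIE, a log2 ratio of -2.73. Insig1, which holds SREBP in the endoplasmic reticulum, had 13688 and 3013 bp (-2.18), with the ΔIE peak inside the fl/fl peaks. Acly, which supplies cytosolic acetyl-CoA, had a promoter domain of 13213 bp in fl/fl that enclosed a peak of 4273 bp in ΔIE (-1.63). Abca7 had 12339 and 6790 bp (-0.86) and Cpt1c 12016 and 3349 bp (-1.84), again with the ΔIE peaks inside those of fl/fl. These genes were taken by the length of their overlapping peaks, and no difference was tested.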
